A study of Mus musculus with 6 samples.

Results

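Enzymes that build and break down glycogen were examined in hypoxic blood neutrophils of wild-type and phd3 null mice. The group is defined by gene symbol and has 7 genes, Gyg, Pgm2, Ugp2, Gys1, Gbe1, Pygl and Pygb, of 18193 genes named on the array. Every probe set whose only symbol is one of these names was taken, which gave 13 of 45037 non-control probe sets, and 0 probe sets named a member together with another gene. All 13 passed the filter on dim signals described below.

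Blood neutrophils were taken from single mice by negative magnetic selection and then kept in culture for 4 h at 3% oxygen, in both groups alike. The wild type group has 3 mice, and the phd3 null group has 3 mice that lack phd3, the prolyl hydroxylase gene now called Egln3. Both are labelled with a C57 background. RNA of each mouse was hybridised to 1 Affymetrix array, so there are 6 arrays in all. With all 6 arrays p-values measure the spread between mice, moderated over genes. In the fits with 4 arrays and a block described below they hardly do. The labels do not say which part of the gene was removed or how, nor do they give age or sex, and no group at normal oxygen was analysed here. The comparison is therefore of genotypes within hypoxia.

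Glycogen is a branched store of glucose that neutrophils hold in the cytosol and can use as fuel where glucose or oxygen is scarce. Glucose phosphate is moved to the form needed by phosphoglucomutases, activated with UTP by UDP-glucose pyrophosphorylase, and added to a primer built on glycogenin by glycogen synthase, while the branching enzyme introduces side chains. Glycogen phosphorylases release glucose phosphate again. Hypoxia-inducible factor (HIF), the transcription factor whose alpha subunits are targets of prolyl hydroxylases, is known to raise several of these genes in other cells.

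The promoters of 5 members are shown because Gys1, Gbe1, Pygl and Ugp2 were the members whose signals on the replicate 3 arrays lay furthest below those on their other arrays, and Gyg was the member with an unadjusted p under 0.05 between genotypes. They run from 250 bases before to 50 bases after the gene's start in RefSeq, build GRCm38.p6, read along the gene. Pygl lies at chr12:70227634-70227933 (minus strand), Ugp2 at chr11:21371218-21371517 (minus strand), Gyg at chr3:20155067-20155366 (minus strand), Gys1 at chr7:45434589-45434888 (plus strand) and Gbe1 at chr16:70313699-70313998 (plus strand). Capitals mark ACGTG or GCGTG on either strand (CACGT or CACGC as printed), the core letters of the sequence that HIF is known to bind.
Pygl: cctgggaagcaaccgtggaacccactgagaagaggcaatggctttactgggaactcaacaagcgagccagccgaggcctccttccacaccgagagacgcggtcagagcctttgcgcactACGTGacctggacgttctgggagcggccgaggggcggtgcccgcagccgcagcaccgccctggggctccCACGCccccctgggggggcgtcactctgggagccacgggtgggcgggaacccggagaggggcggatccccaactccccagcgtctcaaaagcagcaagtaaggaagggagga
Ugp2: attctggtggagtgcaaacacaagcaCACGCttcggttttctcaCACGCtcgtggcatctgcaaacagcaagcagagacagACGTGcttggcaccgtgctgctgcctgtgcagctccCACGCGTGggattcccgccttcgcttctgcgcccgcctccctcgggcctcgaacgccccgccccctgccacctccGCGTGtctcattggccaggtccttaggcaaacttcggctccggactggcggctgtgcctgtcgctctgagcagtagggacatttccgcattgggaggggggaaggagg
Gyg: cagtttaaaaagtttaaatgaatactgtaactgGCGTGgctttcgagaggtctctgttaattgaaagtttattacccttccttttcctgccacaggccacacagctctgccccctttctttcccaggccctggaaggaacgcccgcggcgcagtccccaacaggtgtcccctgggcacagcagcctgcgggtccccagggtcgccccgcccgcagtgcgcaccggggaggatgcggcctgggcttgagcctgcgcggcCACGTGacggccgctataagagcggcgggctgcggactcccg
Gys1: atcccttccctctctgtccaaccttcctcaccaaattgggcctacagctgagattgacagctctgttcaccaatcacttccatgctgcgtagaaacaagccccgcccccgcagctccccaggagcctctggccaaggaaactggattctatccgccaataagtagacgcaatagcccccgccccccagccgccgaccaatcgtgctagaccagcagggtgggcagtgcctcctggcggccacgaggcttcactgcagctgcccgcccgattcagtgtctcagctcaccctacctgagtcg
Gbe1: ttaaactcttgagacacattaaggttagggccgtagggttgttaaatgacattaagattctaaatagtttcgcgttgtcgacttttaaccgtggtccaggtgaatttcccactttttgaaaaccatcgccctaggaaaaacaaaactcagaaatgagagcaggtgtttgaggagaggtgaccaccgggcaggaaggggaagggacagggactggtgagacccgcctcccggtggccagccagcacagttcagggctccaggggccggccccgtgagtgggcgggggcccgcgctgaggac
The 7 members had 8 promoters in the RefSeq table, because Ugp2 has 2 starts, and the Ugp2 window printed is the one further upstream. ACGTG was in 5 of the 8 windows, against 19.6% of all 32851 promoters of the same length, and GCGTG was in 4 of the 8, against 32.4%. The windows with GCGTG all held ACGTG too, so either was in 5 of the 8, against 43.8% of all promoters. Those of Pygb and Pgm2 held matches but are not printed. Pygl had an ACGTG at offset -131 from the start, and Ugp2 had 6 matches, a pair of which overlap. In Gyg an ACGTG was read on both strands of the same CACGTG, from offset 8 on. Gys1, Gbe1 and the second Ugp2 start had 0 matches, which says only that these letters are not in these windows. A match describes the letters and does not show binding.

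Measurements are MAS5 signals, linear intensities for which each array was scaled to a common mean, and the median signal per array was 49.4 to 64.2. Levels of different genes are not compared with each other, because probe sets differ in brightness. Genotypes were compared on log2(signal + 16) over 10960 genes, each by its brightest probe set, with limma and Benjamini-Hochberg adjustment, and a gene was called at an adjusted p under 0.05. Differences are phd3 null minus wild type, and the pseudocount of 16 makes those of dim genes smaller.

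Targeting of Egln3 was visible, with signals of 29.6 to 87.2 on the phd3 null arrays and 2088, 1733.9 and 327 on wild-type replicates 1 to 3. Of 12 neutrophil markers 10 were on the array and 9 lay above the array median on every array, among them S100a8 and S100a9. The arrays of replicate 3 stood apart. Their median correlations with the other arrays were 0.740 and 0.771, against 0.794 to 0.812 for the rest. The summed signal of the 7 B cell markers measured was 3338 and 2848 there, against 369 to 640.7 on the other 4 arrays. The summed signal of the 5 monocyte markers was 5591 and 6361 against 11120 to 13631. Csf1r made up most of it, at 3537.6 and 4048.6 against 8835.9 to 11088.3. Of these 5 markers 2 had both replicate 3 arrays below all others, and 1, Nr4a1, had both above. The sum of the 10 neutrophil markers was 25908 (phd3 null) and 43409 (wild type) against 41062 to 57540. S100a8 and S100a9 made up most of it, at 17949 and 20746 on wild-type replicate 3. Of the 10 markers 3 had both replicate 3 arrays below all others, and 0 had both above. Among the 3, Cxcr2 was at 25.6 and 227 there against 558.9 to 978.9, and Csf3r at 1281.9 and 1745.7 against 2113.2 to 5118.4. The ratio of the 3′ to the 5′ Gapdh probe set, a measure of RNA integrity, was 0.77 and 0.66 there, and 0.73 to 0.80 elsewhere. The 3′ Gapdh signal itself was 3107.5 and 3491.4 there against 6656.3 to 8276.6. For Actb the 3′ signal was 7663.2 (phd3 null) and 11042.6 (wild type) against 9032.1 to 13919. The sum of the 7 natural killer cell markers was 491.5, 2790 and 2246 on the phd3 null arrays and 1364, 5928 and 3419 on the wild-type arrays. It was lower in phd3 null in each pair, though the groups overlapped. Gzma was a large part of it, at 228.4, 1599.5 and 1342.3 against 789.7, 3717.1 and 1853.7. Of the 7 markers 5 were lower in 3 of 3 pairs, against 13% of all genes. The others were Ncr1 (log2 differences of 0.08, -1.21 and 0.44 in pairs 1 to 3) and Prf1 (0.15, -0.03 and -0.72). The sums of T cell (7 markers), platelet (6), erythroid (4) and eosinophil (5) markers were 215.8 to 640.3, 334.9 to 579.9, 777.7 to 6894 and 112.6 to 367.9, and no marker was at 0. Markers of sex differed between the genotypes in pairs 2 and 3. Xist, which is made from an inactive X, had signals of 203.4, 72.9 and 98.5 on the phd3 null arrays and 292, 1180.4 and 1061 on the wild-type arrays. The Y-linked Eif2s3y was at 576.2, 585.4 and 144.3 against 558.4, 54 and 38.7, so that in pair 1 the genotypes were close for both. The part of cell makeup and of sex in the results below was not tested, and in bulk RNA fewer cells of a type and less RNA per cell cannot be told apart.

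No gene of synthesis or breakdown passed the test between genotypes with all 6 arrays. Of the 7 members 0 were called, against 0% of all genes tested (0 of 10960), and 1 member, Gyg, had an unadjusted limma p under 0.05, against 1.74% of all genes. With the replicate number as a block, which compares same-numbered arrays, 0 of 7 were called against 0.0182% of all genes, and 2 had an unadjusted p under 0.05 (Gyg and Gys1) against 5.62%. The difference was above 0 for 5 of 7 members, against 49.4% of all genes, with a median of 0.20 on the log2 scale against -0.01 for all genes. Without phd3 null replicate 2 the count above 0 was 3, without wild-type replicate 3 it was also 3, and the median then stood at -0.06 and -0.45. It was 0.71 without phd3 null replicate 3. The groups did not overlap in 0 of 7 members, against 6.92% of all genes. In 2 members, Gys1 and Gyg, phd3 null was higher in 3 of 3 pairs, against 12.6% of all genes, and 0 members were lower in 3 of 3 pairs, against 13%.

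**Figure D1:**
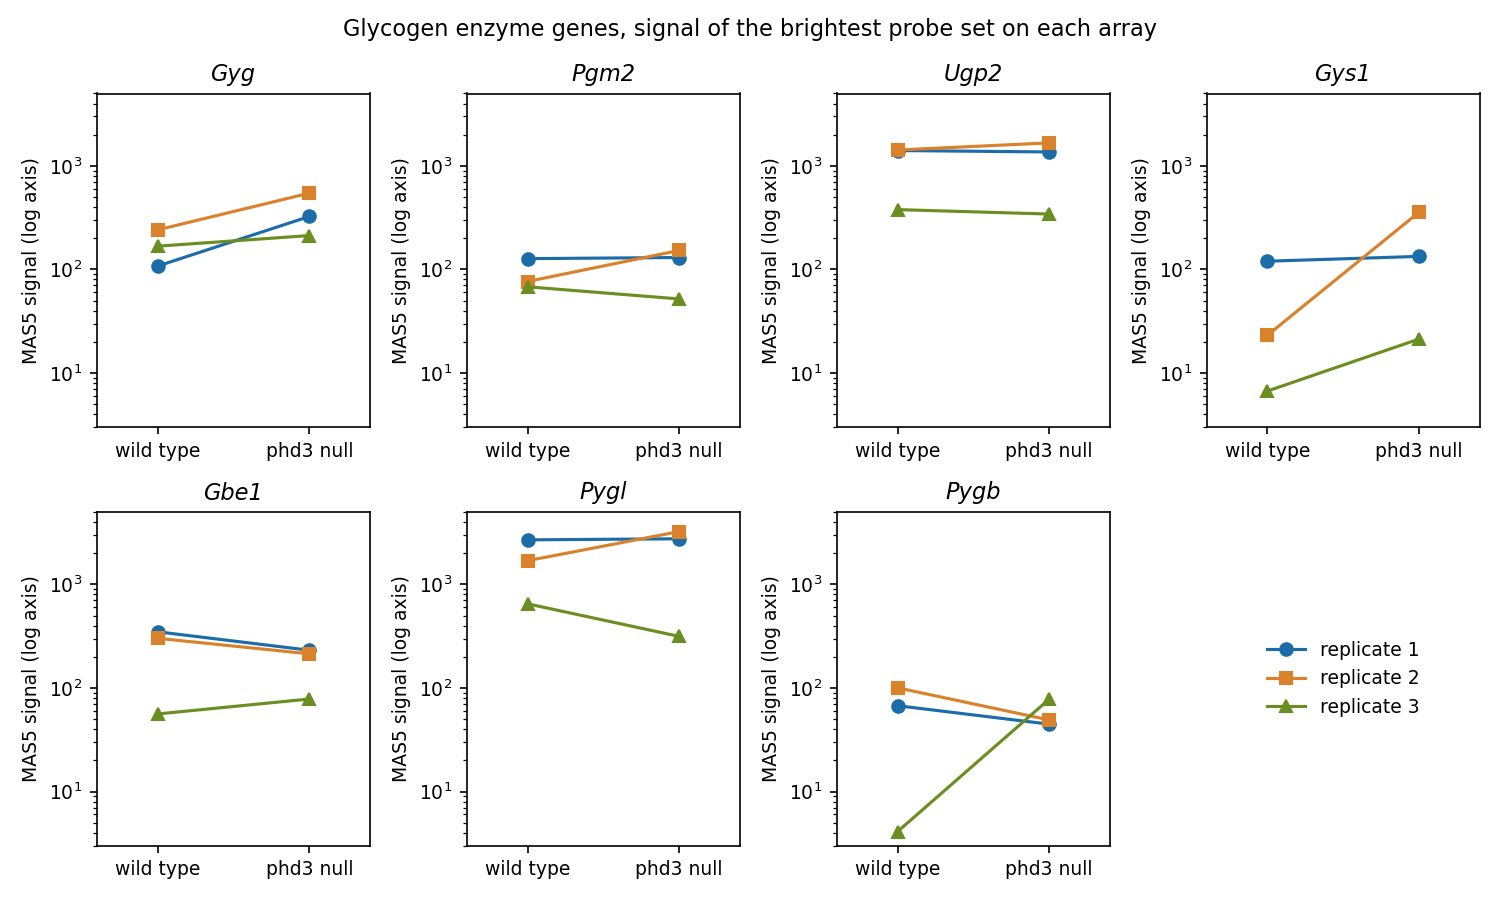
MAS5 signal (log axis) of each member's brightest probe set in wild-type and phd3 null neutrophils, with lines joining same-numbered replicates. The replicate 3 arrays (triangles) are the lowest pair for Ugp2, Gys1, Gbe1, Pygl and Pgm2, and all 3 lines go up from wild type to phd3 null for Gyg and Gys1.

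Gyg encodes glycogenin, the protein that primes a new glycogen particle. Its brighter probe set had signals of 324.7, 545.3 and 212.4 in phd3 null replicates 1 to 3 and of 107.8, 241.2 and 167.8 in wild-type replicates 1 to 3. The phd3 null array of each pair was the higher one, but phd3 null replicate 3 lay below wild-type replicate 2, so the groups overlapped. The means were 360.8 ± 169 and 172.3 ± 66.8 (SD, n = 3 each). The log2 difference was 0.97 (SE 0.42, 95% interval 0.02 to 1.91), and it did not pass in limma (adjusted p = 0.9996, and 0.667 with the block). Within pairs it was 1.46, 1.13 and 0.31, and it ran from 0.63 to 1.28 when 1 array was left out. With a gene's probe sets averaged it was 0.62, and the unadjusted p was then above 0.05.

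The dimmer Gyg probe set differed less, by 0.28 (SE 0.42 in a fit over all non-control probe sets without the filter, as for the other non-representative probe sets below). Its signals were 139, 208.7 and 79.3 in phd3 null and 91.7, 95.4 and 138.8 in wild type. It was higher in phd3 null in pairs 1 and 2, by 0.53 and 1.01, and differed by -0.70 in pair 3.

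Phosphoglucomutases interconvert glucose phosphates at the entry to glycogen synthesis. Pgm2, measured by 1 probe set, had signals of 130.4, 152.7 and 51.9 in phd3 null and 127.2, 76.5 and 68 in wild type. On the log2 scale the difference was 0.20 (SE 0.44, 95% interval -0.79 to 1.18), with 0.03, 0.87 and -0.31 in the pairs. The symbol needs care, because Pgm2 here is gene 66681, for which RefSeq lists Pgm1 as an older name, and Pgm1 is gene 72157, for which it lists Pgm2. The protein of present-day Pgm1 is the better known glucose phosphomutase, and that of Pgm2 is known to act mainly on pentose phosphates.

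Pgm1 is therefore given alongside. Its brighter probe set read 424.7, 553.8 and 170.5 in phd3 null and 331.6, 290 and 82 in wild type. The phd3 null array was the higher one in 3 of 3 pairs, by 0.34, 0.90 and 0.93, as was the case for 12.6% of all genes. Its log2 difference was 0.72 (SE 0.57) and did not pass in limma (adjusted p = 0.9996, and 0.828 with the block, SE 0.26). Its other probe set differed by 0.23 (SE 0.44), with -0.01, -0.02 and 0.74 in the pairs.

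Ugp2 makes UDP-glucose, the donor for glycogen synthase. The brightest of its probe sets had signals of 1363.2, 1668.3 and 342.7 in phd3 null and 1406.7, 1423.6 and 378.3 in wild type. Arrays of the same number were close to each other in both genotypes, and both replicate 3 arrays lay far below the rest. The log2 difference was 0.02 (SE 0.67, 95% interval -1.49 to 1.52), and with the block the interval narrowed to -0.43 to 0.46. Within pairs it was -0.04, 0.23 and -0.14.

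The 5 Ugp2 probe sets gave log2 differences from -0.33 to 0.16. In 4 of them both replicate 3 arrays were the lowest, with shifts of -1.60 to -2.85 against the other arrays. The shift of -2.85 rests on replicate 3 signals of 16.2 and 8.9, below the medians of those arrays (64.2 and 60.3). In the brighter ones it was -1.60 to -1.97. The exception, where both were not the lowest, was the probe set with the difference of -0.33. It had signals of 80.7, 188.8 and 47.2 in phd3 null, 108, 136.4 and 116.6 in wild type, and a shift of -0.60.

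Gys1 encodes the glycogen synthase of muscle and most other tissues. The probe set used in the fit over genes had signals of 133.7, 357.5 and 21.3 in phd3 null and 120.1, 23.2 and 6.7 in wild type. Phd3 null replicate 2 was far above the other arrays, wild-type replicate 1 was close to phd3 null replicate 1, and the groups overlapped. The signals of phd3 null replicate 3 and wild-type replicates 2 and 3 lay below the medians of those arrays (64.2, 51.1 and 60.3), where MAS5 values vary widely on a log scale. The means were 170.8 ± 171 and 50.0 ± 61.3 (SD, n = 3 each). On the log2 scale the difference was 1.37 (SE 0.89, 95% interval -0.63 to 3.36) and did not pass in limma (adjusted p = 0.9996, and 0.857 with the block). Within pairs it was 0.14, 3.25 and 0.72, so that pair 2 carried most of it, and without phd3 null replicate 2 it was 0.59. It was 0.72 with probe sets averaged and 0.88 with a pseudocount of 64.

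The other Gys1 probe set had the same mean level, 6.31 on the log2 scale, and gave another picture. Its signals were 197.4, 104.9 and 4.8 in phd3 null and 93.3, 171.6 and 6.6 in wild type. Its log2 difference was 0.07 (SE 0.86), with 0.97, -0.63 and -0.12 in the pairs. The probe sets of Gys1 differed in sign in pairs 2 and 3. In both the replicate 3 arrays were the lowest pair, with shifts of -2.18 and -2.81. These shifts rest on replicate 3 signals of 4.8 to 21.3, below the medians of those arrays (64.2 and 60.3).

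**Figure D2:**
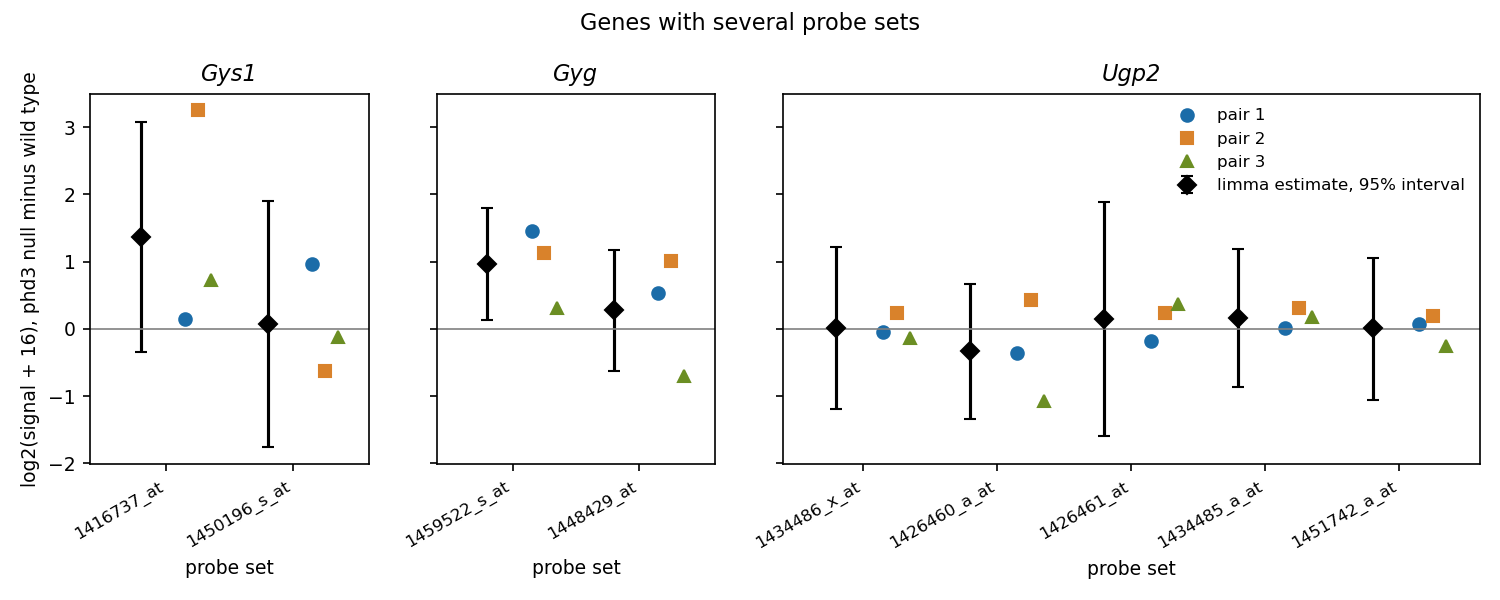
Log2 difference (phd3 null minus wild type) for every probe set of Gys1, Gyg and Ugp2, with limma's estimate and 95% interval (diamonds) and the value within each same-numbered pair. Intervals are from a fit over all non-control probe sets without the filter, so they differ from those of the fit over genes. For Gys1, pair 2 stands at 3.25 in the probe set used for the gene and at -0.63 in the other, and the leftmost probe set of each gene is the one used in the fit over genes.

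Gbe1 encodes the branching enzyme. Signals of its 1 probe set were 231.4, 213.5 and 78.2 in phd3 null and 348.5, 301.6 and 56.1 in wild type. The phd3 null arrays were lower in pairs 1 and 2, by -0.56 and -0.47, and higher in pair 3, by 0.39. The log2 difference was -0.21 (SE 0.63, 95% interval -1.64 to 1.21, adjusted p = 0.9996 in limma, and 0.96 with the block). When 1 array was left out it ran from -0.96 to 0.23.

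Phosphorylases take the store down again. Pygl, the form named for liver, was bright, with signals of 2756.1, 3237.4 and 314.5 in phd3 null and 2691.4, 1694.2 and 649 in wild type. The replicate 3 arrays were the lowest in both genotypes, and the phd3 null one was the lowest of all. On the log2 scale the difference was -0.02 (SE 0.84, 95% interval -1.90 to 1.87), and with the block the SE was 0.28 and the interval -0.62 to 0.58. Within pairs it was 0.03, 0.93 and -1.01, and without phd3 null replicate 3 it was 1.05.

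Pygb, the form named for brain, lay near the array median. Its signals were 44.7, 49.1 and 77.9 in phd3 null and 67.4, 100.3 and 4.1 in wild type. Pairs 1 and 2 gave -0.46 and -0.84, and pair 3, with wild-type replicate 3 far below every other array, gave 2.22. Its log2 difference was 0.31 (SE 0.70, 95% interval -1.27 to 1.89), and without wild-type replicate 3 it was -0.45. It was 0.78 with a pseudocount of 1 and 0.08 with 64.

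**Figure D3:**
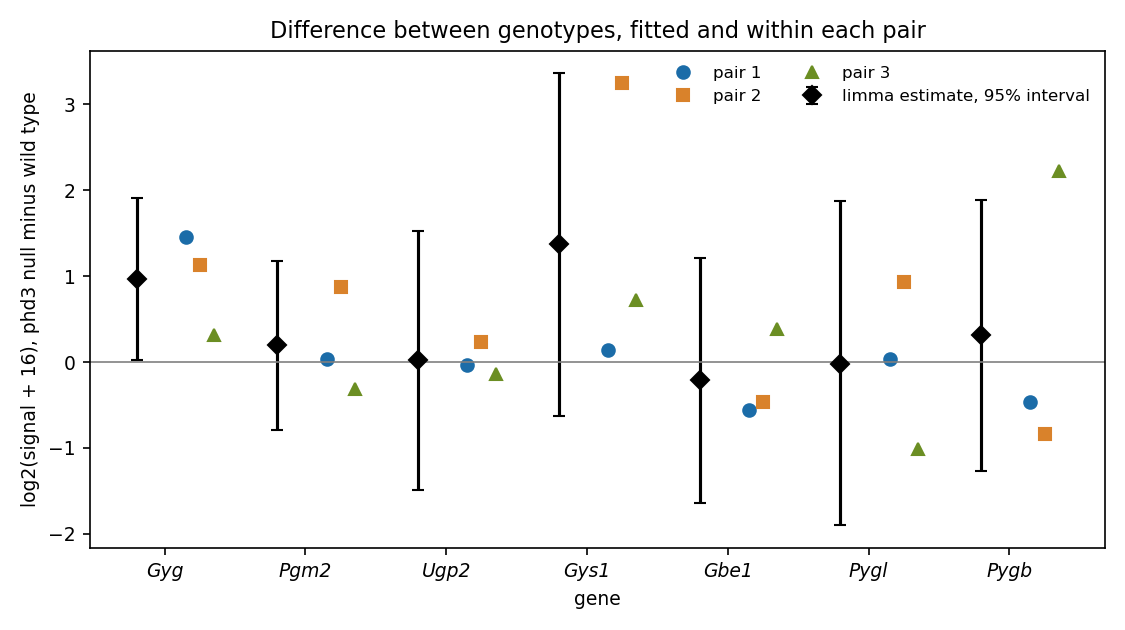
Log2 difference (phd3 null minus wild type) of the 7 members, with limma's estimate and 95% interval without a block (diamonds) and the 3 pair values. Intervals of all members but Gyg include 0, Gyg's runs from 0.02 to 1.91, and 0 of 7 members passed after adjustment over all genes.

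For most members the lowest signals were those of the replicate 3 arrays, whatever the genotype. In Gys1, Gbe1, Pygl, Ugp2 and Pgm2 both replicate 3 arrays lay below all 4 others, which is 5 of 7 members, against 16.9% of all genes tested, and they lay above all others in 0 of 7, against 18.5%. The mean shift of the replicate 3 arrays was -2.44 for Pygl, -2.18 for Gys1, -1.97 for Ugp2 and -1.79 for Gbe1 on the log2 scale, and it was -0.86 for Pygb, -0.83 for Pgm2 and -0.45 for Gyg. The share of all genes with a lower shift was 0.575% for Pygl, 0.958% for Gys1, 1.56% for Ugp2, 2.46% for Gbe1 and 24.6% for Gyg. The median shift of the members was -1.79, against 0.10 over all genes. These are descriptions of the arrays, with no test, and the marker sums and Gapdh ratios given above belong to the same arrays.

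**Figure D4:**
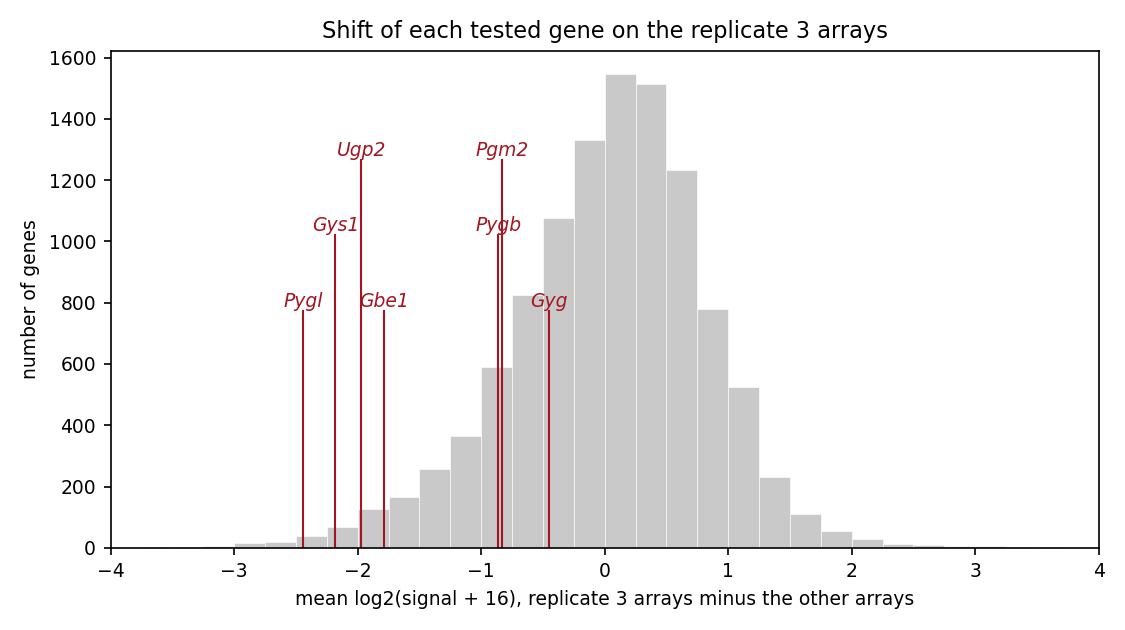
Number of genes (grey bars, 10960 in all) by the mean log2(signal + 16) of the replicate 3 arrays minus that of the other 4 arrays, with the 7 members marked in red. Pygl, Gys1, Ugp2 and Gbe1 lie in the lower tail, between -2.44 and -1.79, and Gyg lies at -0.45.

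Without the replicate 3 arrays the paired comparison gave 2 calls among the members. In that fit Gyg differed by 1.29 (SE 0.33, limma adjusted p = 0.0239) and Gys1 by 1.69 (SE 0.44, limma adjusted p = 0.0318), both higher in phd3 null. That is 2 of 7 members called, against 0.42% of all genes (46 of 10960), and both were higher, as were 13 genes in all, 0.119%. The fit has 4 arrays and 1 residual degree of freedom, and its variance estimate comes almost wholly from other genes. Its p-values therefore hardly reflect a gene's own spread between mice, and the 2 calls cannot be read as measuring that spread. For Gys1 the pairs stood at 0.14 and 3.25, and pair 2 is one in which Xist and Eif2s3y differed between the genotypes. With the mean of a gene's probe sets 0 of 7 passed, against 0.831% of 9028 genes (Gyg 1.03, adjusted p = 0.0986, and Gys1 0.93, adjusted p = 0.325), and 0 passed without a trend in the prior variance, against 0.00912% of all genes (adjusted p = 0.630 and 0.751). Without the block 0 of 7 passed, against 0.00912% of all genes, and Gyg and Gys1 had an adjusted p of 0.966 each. In the same fit over 22519 probe sets, of which 0.471% were called, the brighter Gyg probe set passed (adjusted p = 0.0208) and the dimmer did not (0.77, adjusted p = 0.781). The Gys1 probe set used for the gene passed (adjusted p = 0.0277) and the other did not (0.17, adjusted p = 0.991). With the replicate 1 arrays left out in place of replicate 3, 0 of 7 were called, against 0.0821% of all genes. With the replicate 2 arrays left out it was also 0 of 7, against 0.484%.

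Array profiles were compared by the root mean square difference of log2 values centred over the 6 arrays, and the 3 closest genes of each member are named. Likeness over 6 arrays is given as a description. Pygl was closest to Eif4ebp1, a translation repressor gene, Slc30a9 and Ncf1, a subunit of the phagocyte NADPH oxidase (0.13, 0.14 and 0.19, against a median of 1.33 over all genes). Eif4ebp1 signals were 1968.8, 2048.7 and 204.1 in phd3 null and 1907.7, 1349.5 and 386.7 in wild type. Ugp2 was closest to Pofut2, Dram1 and Dnajc14 (0.09 each), Gbe1 to Tmem68, Fam160b2 and Gpat3 (0.05, 0.16 and 0.16), and Pgm2 to Ccni, Cbl and Hexa (0.09, 0.09 and 0.10). Gyg was closest to Runx3, Pbx2 and Scd2 (0.16, 0.21 and 0.23), and Pygb to Cped1, Skiv2l and Il2ra (0.12, 0.16 and 0.20).

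Gys1 had no profile as close as those. Its nearest were Mpzl3, Nsmf and Eif2s3y (0.54, 0.58 and 0.59). Eif2s3y is the Y-linked gene whose signals are given above, and the part of sex in the Gys1 values was not tested. In pair 1, where Xist and Eif2s3y were close between the genotypes, the probe sets used for the genes differed by 0.14 (Gys1) and 1.46 (Gyg). The other Gys1 probe set went the other way, with 0.97 in pair 1 and -0.63 and -0.12 in pairs 2 and 3. The dimmer Gyg probe set gave 0.53 in pair 1. Among the members themselves Ugp2 and Gbe1 were closest (0.33), followed by Pygl and Ugp2 (0.42), but 108 other genes were closer to Gbe1 than Ugp2 was.

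Other enzymes of glycogen turnover were mostly dim or did not pass. Of 14 listed, 13 were on the array, 5 were tested and 0 were called by limma in either fit, against 0% and 0.0182% of all genes. Of the 5, 3 were higher and 2 lower in phd3 null, with a median of 0.02, against 49.4% of all genes higher. In the fit without the block 0 had an unadjusted limma p under 0.05, against 1.74% of all genes. With the block 1 did, Pgm1, against 5.62%. Slc37a4, the glucose phosphate transporter of the endoplasmic reticulum, had signals of 121.2, 164.1 and 142.3 in phd3 null and 84.6, 144.2 and 61.6 in wild type, a difference of 0.55 (SE 0.37). Gaa, the lysosomal glucosidase that degrades glycogen, differed by 0.02 (SE 0.43), and Epm2a, which encodes the glycogen phosphatase laforin, by -0.22 (SE 0.45). The tissue forms Gys2 (liver synthase) and Pygm (muscle phosphorylase) were not tested. Gys2 signal was 2.5 to 37.8, below the array median on every array, and Pygm signal was 2.5 to 110.8, above the array median on 1 array. Gys2 and Pygm were named after their values were seen.

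Regulators of the synthase and the phosphorylases did not pass either. Of the phosphorylase kinase genes 8 were listed, 5 were on the array and 2 were tested, with 0 called in either fit. Phka2, the alpha subunit named for liver, differed by 0.55 (SE 0.33) and was higher in 3 of 3 pairs, as were 12.6% of all genes. The catalytic subunit gene Phkg2 differed by 0.17 (SE 0.40). Of 18 genes that control glycogen synthase 13 were tested and 0 called in either fit, against 0% and 0.0182% of all genes. Of the 13, 8 were higher in phd3 null, against 49.4% of all genes, with a median of 0.07. In each fit 1 had an unadjusted limma p under 0.05, against 1.74% of all genes without the block and 5.62% with it. That 1 was Akt2, a kinase of insulin signalling, with phd3 null signals of 53.9, 160.1 and 50.8 and wild-type signals of 183.2, 167.3 and 203.6. Its groups did not overlap, as in 6.92% of all genes, and the difference was -1.10 (SE 0.42, limma adjusted p = 0.9996, and 0.787 with the block). Akt1 differed by 0.43 (SE 0.39), Prkacb, a catalytic subunit of protein kinase A, by 0.62 (SE 0.61), and Ppp1r3a, a subunit that targets phosphatase to glycogen, by -0.37 (SE 0.51).

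The phosphatase targeting subunit Ppp1r3b had its lowest signals on the replicate 3 arrays, and was named after its values were seen. Its signals were 1279.4, 1459.5 and 228.4 in phd3 null against 1130.2, 767 and 229.8 in wild type, a replicate 3 shift of -2.22 and a difference between genotypes of 0.36 (SE 0.75). In this list of regulators 5 of 13 tested genes had both replicate 3 arrays below the others, against 16.9% of all genes, and 0 had both above, against 18.5%. Among the 5 tested other enzymes of glycogen turnover 1 had both below and 2 had both above. Of the 2 tested phosphorylase kinase genes 0 had both below and 0 had both above. Other users of UDP-glucose had 4 of 7 listed genes tested and 0 called. In either fit 0 had an unadjusted limma p under 0.05, against 1.74% and 5.62% of all genes. Ugcg, which makes glucosylceramide, differed by -0.57 (SE 0.40), the glycoprotein folding sensor Uggt1 by 0.19 (SE 0.31), Galt by 0.08 (SE 0.35) and Ugdh by 0.07 (SE 0.33). In this list of UDP-glucose users 0 of 4 had both replicate 3 arrays below the others, and 1 had both above.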

How the data were processed

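Expression was measured with 1 Affymetrix array for each of 6 mice. The authors deposited linear intensities, and the submitters' processing notes name MAS5 as the tool, with no version. In the deposited values the mean after trimming 2% at each end was 100.0 on each array. No detection call was used, so a low signal says nothing on presence, and the number of arrays limits the precision. MAS5 signals near background vary widely on a log scale.

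Of 45101 probe sets 64 were controls. Among the rest 34945 had 1 gene symbol in the platform annotation, 932 had several and 9160 were unnamed here. Each gene was represented by its brightest probe set, and 10960 genes whose average log2(signal + 16) reached 5.90, the median over probe sets, were tested. Of these, 6917 had several probe sets. Promoter sequences come from RefSeq (GRCm38.p6), with all 7 members matched by gene ID.

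Genotypes were compared in R 4.3.3 by limma 3.58.1, with lmFit, eBayes (trended prior, two-sided) and Benjamini-Hochberg adjustment over all genes. The code was tested on simulated data. Replicate numbers are shared by the genotypes and go with a shared code in the source labels. After subtraction of group means, arrays of 1 number correlated at 0.292, 0.151 and 0.474 in pairs 1 to 3, and arrays of different numbers at -0.363 to 0.177. Every pair was above 0.1, and same-numbered samples were treated as pairs. The correlations alone do not settle the pairing of replicates 1 and 2. Phd3 null replicate 2 correlated more with wild-type replicate 1 (0.177) than with wild-type replicate 2 (0.151). Nothing more says how the mice of a pair are related.

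The members and lists were chosen with earlier results of these data known. Named genes are all members, the 4 tested genes of smallest p in each list of related genes, and the 3 nearest profiles of each member, and others are marked in the text. Alternatives covered the pseudocount, normalization, filter, probe set rule, prior variance, array weights, block and left-out arrays.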

Additional observations from a re-analysis of the deposited data

How the results depend on the processing

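Across the planned settings with all 6 arrays, 0 of 7 members were called, and 0 of 7 when any 1 array was left out. The count called over all genes was 0 without the block, 0 to 1 when 1 array was left out, 1 without both replicate 3 arrays, 2 with the replicate block and 46 with the replicate block and without both replicate 3 arrays. The block changed no member's call while all 6 arrays were used. The following were chosen after seeing the data. With the block, the count over all genes was 9 without the replicate 1 arrays, 53 without the replicate 2 arrays and 3 with array quality weights. With the block and without the replicate 3 arrays it was 1 without a trend, 75 with probe sets averaged, 48 with a pseudocount of 64, 47 with a pseudocount of 1 and 96 with quantile normalization. Members called with the block and without replicate 3 numbered 2 at each pseudocount (1, 16 and 64), 1 with quantile normalization (Gyg, adjusted p = 0.0156) and 0 with averaged probe sets or without a trend.

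Quantile normalization takes the other Gys1 probe set, and the Gys1 difference, 1.37 in the fit as reported, was then 0.06 with all arrays and 0.16 with the block and without replicate 3. With all arrays and probe sets averaged, Gys1 was 0.72 and Gyg, reported at 0.97, was 0.62. Gys1 was 0.88 with a pseudocount of 64, 1.86 with 1 and 1.98 with array quality weights, and Pygb was 0.08 with a pseudocount of 64 and 0.78 with 1. The count of members above 0 was 3 to 7 and their median -0.45 to 0.71 when 1 array was left out, and the count was 3 with the block and without replicate 2. Leaving out 1 array gave -0.96 to 0.23 for Gbe1, -0.60 to 1.05 for Pygl, -0.45 to 0.81 for Pygb, -0.60 to 0.71 for Ugp2, -0.06 to 0.60 for Pgm2, 0.59 to 2.26 for Gys1 and 0.63 to 1.28 for Gyg. Pygl, at -0.02, was 0.01 with a pseudocount of 64, 0.07 with quantile normalization, 0.48 with array quality weights and 0.00 with these and the block. Pygb, at 0.31, was -0.15 with array quality weights. Without both replicate 3 arrays, Pygl was 0.48 and Pygb -0.65, with or without the block, and with the block Pygl was 0.47 to 0.60 and Pygb -0.80 to -0.41 over the other settings (-0.41 and 0.47 with a pseudocount of 64, -0.80 and 0.48 with 1, -0.67 and 0.60 with quantile normalization). Ugp2, at 0.02, was -0.00 with averaged probe sets, -0.09 with the block and without replicate 2, and -0.33 in another of its probe sets, and Pgm2, at 0.20, was -0.14 with the block and without replicate 2. The cause was not tested. These changes of sign are of differences that did not pass in any setting. Wide intervals limit what 3 arrays a group can show.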
